A study of Mus musculus with 4 samples.

Results

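The colony-stimulating factors (CSFs) and their receptors were measured as 8 genes, 3 of them ligands (Csf1, Csf2 and Csf3) and 5 of them receptor chains (Csf1r, Csf2ra, Csf2rb, Csf2rb2 and Csf3r). They were taken by symbol from strand-specific RNA sequencing counts that list 24411 genes. The cells were BV2, an immortalised mouse microglial line, and every library is labelled as a CRISPR-Cas9 knockout of PU.1, a lineage-determining factor of myeloid cells whose gene is Spi1. There were 2 libraries of cells given lipopolysaccharide (LPS, a bacterial cell wall component sensed by TLR4) at 10 ng/ml, and 2 libraries of untreated cells of the same genotype. The length of the exposure is unsettled, with 2 h in one label field and 4 h in another, and the extraction protocol names hMSCs in place of BV2 cells. Both groups carry the same knockout label, so the comparison is of LPS within it, and the labels do not say whether the knockout line is a single clone or whether libraries came from separate cultures. If they did not, the p-values below measure only technical spread between libraries.

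The CSF system has 3 arms. CSF1 (M-CSF) signals through the receptor tyrosine kinase CSF1R, which keeps macrophages and microglia alive and which also binds interleukin 34. CSF2 (GM-CSF) binds a heteromer of the alpha chain CSF2RA and the shared beta chain CSF2RB, and mice carry a second beta chain gene, Csf2rb2, whose product serves interleukin 3. CSF3 (G-CSF) acts through homodimers of CSF3R, best known on neutrophils and their precursors. The comparison addressed how these genes respond to LPS in cells labelled PU.1 knockout. Csf1r, Csf2ra and Csf3r are textbook targets of PU.1 in myeloid cells.

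Gene counts totalled 3256197 and 3749159 in the LPS libraries, against 4502105 and 4115011 in the untreated libraries. Library measures moved with treatment. Unmapped reads were 23.0% and 24.2% after LPS and 19.0% and 20.7% in untreated cells, uniquely placed reads outside genes were 59.1% and 57.4% after LPS and 53.0% and 51.8% in untreated cells, and TMM factors were 0.888 and 0.880 after LPS and 1.16 and 1.10 in untreated cells. Their part in the LPS differences was not tested. Spi1 itself had 745 and 958 reads after LPS and 844 and 743 reads in untreated cells, so its transcript was present in every library, and the edit itself cannot be read from gene counts. Of 12 microglia and macrophage markers, 10 could be tested. Of these, 8 were higher after LPS and 1, Tmem119, was lower (edgeR adjusted p below 0.05). Of all 9992 tested genes, 26.6% were higher and 25.3% lower. The summed level of the marker list was 3561 and 3863 CPM after LPS and 2349 and 2408 CPM in untreated cells. The part of these markers in the results was not tested. Sall1 had no read, and P2ry12 had 1 and 0 reads after LPS and 12 and 7 reads in untreated cells. No matched marker of neutrophils, lymphocytes, fibroblasts, astrocytes or neurons had enough reads to be tested. CPM is the read count relative to the library size scaled by trimmed mean of M-values (TMM).

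Where RefSeq gives a start site, the bases just upstream of it show what letters lie beside these genes. Of the 8 members, 5 are in the RefSeq promoter table (build GRCm38.p6), and the 250 bases upstream of each start were searched on both strands for GGG, any 2 bases and TTTCC in a row (an NF-kB site), GAGGAAG (a PU.1 site) and TTCNNNGAA (a STAT site). The motifs were chosen after the sequences had been seen. The 4 members shown hold at least 1 match and were counted in the libraries, and capitals mark the matched letters.
Csf1: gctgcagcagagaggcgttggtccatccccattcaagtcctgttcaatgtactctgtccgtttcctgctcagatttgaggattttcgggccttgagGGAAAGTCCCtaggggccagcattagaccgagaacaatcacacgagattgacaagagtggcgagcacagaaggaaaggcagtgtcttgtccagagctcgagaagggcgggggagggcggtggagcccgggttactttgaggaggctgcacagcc
Csf2ra: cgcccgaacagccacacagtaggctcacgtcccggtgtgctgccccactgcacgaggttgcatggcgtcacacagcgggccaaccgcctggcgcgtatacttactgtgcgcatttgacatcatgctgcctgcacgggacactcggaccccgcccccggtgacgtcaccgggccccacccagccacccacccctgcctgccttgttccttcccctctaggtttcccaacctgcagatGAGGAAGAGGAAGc
Csf2rb2: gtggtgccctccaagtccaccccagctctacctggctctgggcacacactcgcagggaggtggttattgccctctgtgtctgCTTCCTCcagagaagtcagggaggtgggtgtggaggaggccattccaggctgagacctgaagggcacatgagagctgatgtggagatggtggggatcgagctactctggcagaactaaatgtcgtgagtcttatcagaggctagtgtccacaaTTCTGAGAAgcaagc
Csf3r: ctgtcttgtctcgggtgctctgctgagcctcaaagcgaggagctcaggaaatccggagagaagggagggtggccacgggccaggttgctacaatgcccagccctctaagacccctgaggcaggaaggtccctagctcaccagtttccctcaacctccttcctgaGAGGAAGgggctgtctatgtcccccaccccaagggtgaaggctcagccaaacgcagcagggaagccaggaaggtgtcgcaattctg

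The Csf1 window (chr3:107760470-107760719, minus strand) holds 1 NF-kB match, read on the strand opposite to the gene, whose bases lie 154 to 145 bases upstream of the start. Such a match was found upstream of 1.41% of 32851 RefSeq starts. The PU.1 letters were found upstream of 10.6% of starts. They occur at 2 places in the Csf2ra window (chr19:61228419-61228668, minus strand), which overlap by their shared G and begin 14 and 8 bases upstream of the start. The Csf2rb2 window (chr15:78305722-78305971, minus strand) holds the PU.1 letters on the opposite strand, 168 to 162 bases upstream, and a STAT match 15 to 7 bases upstream, a motif present at 7.02% of starts. The Csf3r window (chr4:126024409-126024658, plus strand) holds the PU.1 letters 86 to 80 bases upstream. The Csf2 window held none of the 3 motifs. A match is a run of letters and not evidence of binding.

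Among the ligands, Csf1 and Csf3 rose after LPS and Csf2 was not detected. Csf1, the macrophage growth factor, stood at 451 and 444 CPM in the LPS libraries, against 124 and 122 CPM in the untreated libraries. The libraries of a group lay within 1 counting error of each other, and the groups were far apart. The mean was 447 ± 5.42 CPM after LPS and 123 ± 1.73 CPM in untreated cells (SD, n = 2 each). That is 3.63-fold, or 1.86 ± 0.09 (SE) on the log2 scale, with an adjusted p of 1.4e-23 by edgeR's quasi-likelihood test. In bulk RNA, a change in the number of cells of a type and one in RNA per cell cannot be told apart. Of all tested genes, 4.28% had a larger rise. In mean CPM per length over the 4 libraries, LPS libraries included, Csf1 lay above 89.8% of tested genes.

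Csf3, the granulocyte growth factor, was counted with 60 and 77 reads after LPS and with 0 reads in both untreated libraries. All of its reads thus came from the LPS libraries, where it reached 20.8 and 23.4 CPM. Pooled over the LPS libraries it stood at 22.2 CPM, 72.1 times a floor of 3 counts over the untreated group (0.308 CPM). That fold is a point estimate and not a lower limit, since it leaves out the counting error of the LPS reads. Csf3 passed the expression filter through its LPS libraries alone. Its edgeR adjusted p of 7.4e-18 belongs to the fitted fold change, which rests on the prior count, and not to the 72.1-fold. The 95% exact Poisson interval of the 137 LPS reads runs from 115 to 162, and it covers counting error only.

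Csf2, which encodes GM-CSF, had 0 reads in all 4 libraries. The limit that a count of 0 allows, taken as 3 counts, was 1.04 and 0.911 CPM in the LPS libraries and 0.574 and 0.663 CPM in the untreated libraries. Csf2 was therefore not detectable at this depth, whereas Csf3 was. The opposite-strand counts of Csf2 were also 0 in every library. Interleukin 3, encoded by the gene next to Csf2 on the chromosome and a ligand of the same beta chain family, likewise had 0 reads in all 4 libraries, as did interleukin 5. Cytokine transcripts did respond in these cells, since Tnf stood at 845 ± 77.5 CPM after LPS and 17.7 ± 2.53 CPM in untreated cells, and Il6 had 82 and 105 reads after LPS and none in untreated cells.

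**Figure D1:**
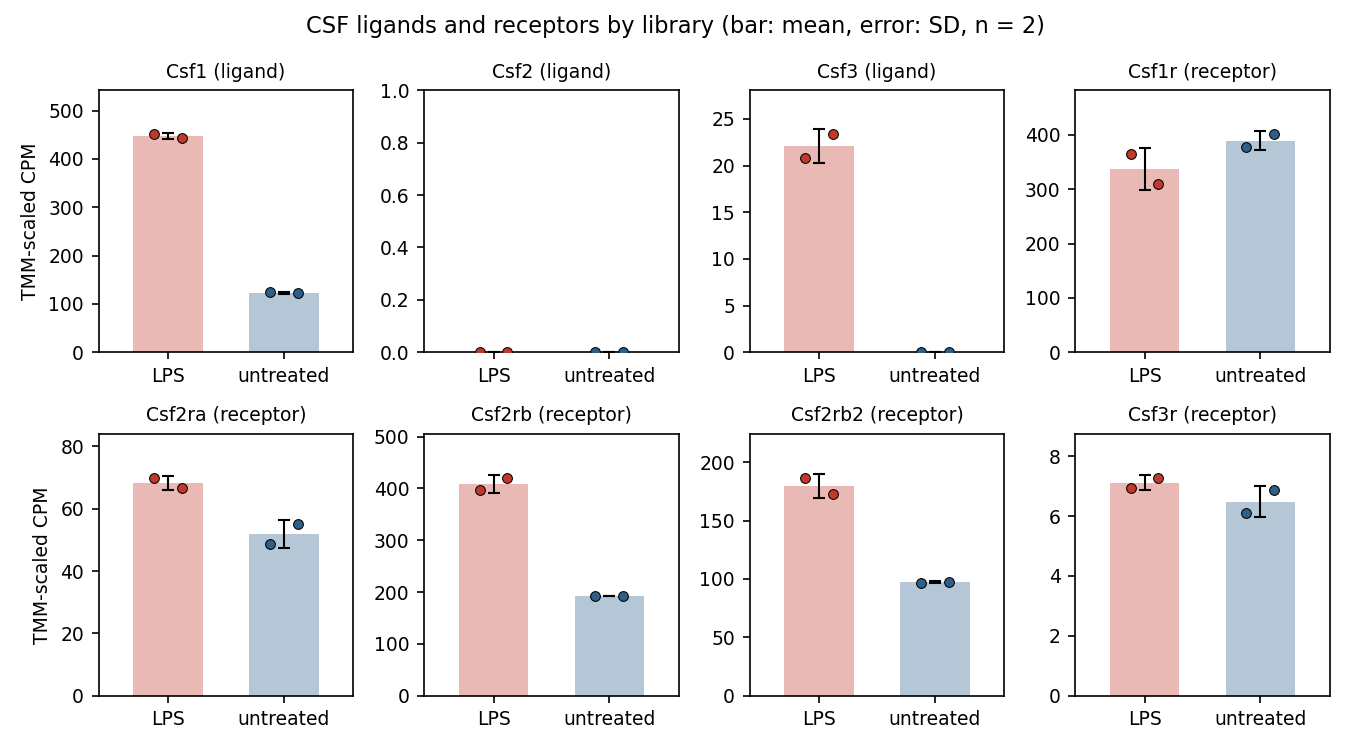
TMM-scaled CPM of the 8 CSF genes in each library (points), with the group mean (bar) and SD (error bar, n = 2), LPS in red and untreated in blue, each panel on its own linear axis from 0. Csf1 stands at 447 CPM after LPS and 123 CPM in untreated cells, Csf3 is seen in the LPS libraries alone, and Csf2 has no read.

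Among the receptors, the 2 beta chain genes rose, the alpha chain gene Csf2ra was higher by less, Csf1r was slightly lower, both in calls that depend on the processing, and Csf3r stayed low without a call. Csf2rb, the signalling chain shared by the receptors of GM-CSF, interleukin 3 and interleukin 5, stood at 397 and 421 CPM after LPS, against 192 and 193 CPM in untreated cells. The groups did not overlap, and the untreated libraries were nearly equal. This is 2.13-fold, or 1.09 ± 0.09 (SE) in log2, with an edgeR adjusted p of 2.6e-15. Csf2rb2, its neighbour on the chromosome, stood at 187 and 172 CPM after LPS, against 96.6 and 97.8 CPM in untreated cells. It was 1.85-fold higher, or 0.89 ± 0.10 (SE) in log2, with an edgeR adjusted p of 5.8e-11.

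The beta chain genes are close copies, and reads that fit both are not counted. Of the 101-base windows of the longest transcript, 6.85% for Csf2rb and 7.09% for Csf2rb2 occur word for word in a transcript of the other gene, so most windows tell them apart. With the counts of both genes summed, the log2 difference was 1.02 ± 0.08 (SE), with an edgeR adjusted p of 8.8e-15. Within a library, Csf2rb reads outnumbered Csf2rb2 reads 2.12 and 2.44 to 1 after LPS and 1.98 and 1.97 to 1 in untreated cells. The exact 95% interval of the first LPS library (1.92 to 2.36) covers both untreated values, whereas that of the second (2.212 to 2.695) lies above them. The untreated libraries' own intervals (1.781 to 2.213 and 1.757 to 2.217) narrowly overlap that of the second LPS library.

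Csf2ra, the chain that gives the GM-CSF receptor its specificity, stood at 70.0 and 66.8 CPM after LPS, against 48.8 and 55.1 CPM in untreated cells. Both LPS libraries lay above both untreated ones, with a smaller gap than for the beta chains. In log2 the difference was 0.40 ± 0.12 (SE), with a 95% interval of 0.15 to 0.65 and an edgeR adjusted p of 0.0055. It failed the threshold with DESeq2 (adjusted p = 0.082), under library size scaling (0.04 in log2, edgeR adjusted p = 0.80) and without untreated replicate 1 (0.31, edgeR adjusted p = 0.15). With offsets corrected for GC content the log2 fold change was 0.74, and Csf2ra has the highest GC content of the 8 genes, 57.8% of its longest transcript.

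The alpha chains that pair with the beta chains for interleukin 3 and interleukin 5, Il3ra and Il5ra, had 0 reads in all 4 libraries. Of the alpha partners of the beta chain family, Csf2ra was thus the one counted. Csf2rb reads per Csf2ra read numbered 5.67 and 6.30 after LPS, against 3.93 and 3.50 in untreated cells. Csf2rb2 reads per Csf2ra read numbered 2.67 and 2.58 after LPS and 1.98 and 1.78 in untreated cells. These ratios do not depend on how libraries are scaled.

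Csf1r, the receptor of CSF1, stood at 365 and 310 CPM after LPS, against 377 and 401 CPM in untreated cells. The LPS libraries lay below the untreated ones, but the first of them was nearer to the untreated libraries than to the other LPS library. The mean was 337 ± 38.4 CPM after LPS and 389 ± 17.3 CPM in untreated cells (SD, n = 2 each). The log2 difference was -0.21 ± 0.09 (SE), with a 95% interval of -0.38 to -0.03 and an edgeR adjusted p of 0.043. Its LPS libraries differed by 3.67 counting errors, more than those of any other member. It missed the threshold with DESeq2 (adjusted p = 0.15), and likewise without LPS replicate 2 (-0.09 in log2), untreated replicate 1 (-0.26) or untreated replicate 2 (-0.17). With GC-corrected offsets it was -0.00082.

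Csf3r, the G-CSF receptor gene, had 20 and 24 reads after LPS and 32 and 31 reads in untreated cells, or 6.93 and 7.29 CPM against 6.12 and 6.86 CPM. The LPS libraries lay above the untreated ones in CPM by less than the counting error of 20 to 32 reads. The log2 fold change was 0.14 (SE 0.30, edgeR adjusted p = 0.72) with a 95% interval of -0.47 to 0.74, so these counts could not resolve a change of that size. It turned to -0.22 with library size scaling. Of the neutrophil and granulocyte precursor markers, 8 of 9 matched, 4 had no read, including the defining granule genes Mpo and Elane, and the summed level of the list was 2.08 and 1.82 CPM after LPS and 0.765 and 1.77 CPM in untreated cells.

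In all, 7 of the 8 members had enough reads to be tested, Csf3 through its LPS libraries alone. By edgeR 6 of them were called, beside 51.9% of all tested genes, with 5 higher after LPS and 1 lower, beside 26.6% of all 9992 tested genes that were higher and 25.3% that were lower. By DESeq2 the 4 members Csf1, Csf3, Csf2rb and Csf2rb2 were called, all higher, beside 33.3% of all tested genes called, 18.4% higher and 14.9% lower. By DESeq2 none was lower, with an unadjusted p of 0.067 and an adjusted p of 0.15 for Csf1r. In CPM, 6 members had both LPS libraries above both untreated ones and 1 had them below, where 37.5% and 37.6% of all tested genes did so.

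**Figure D2:**
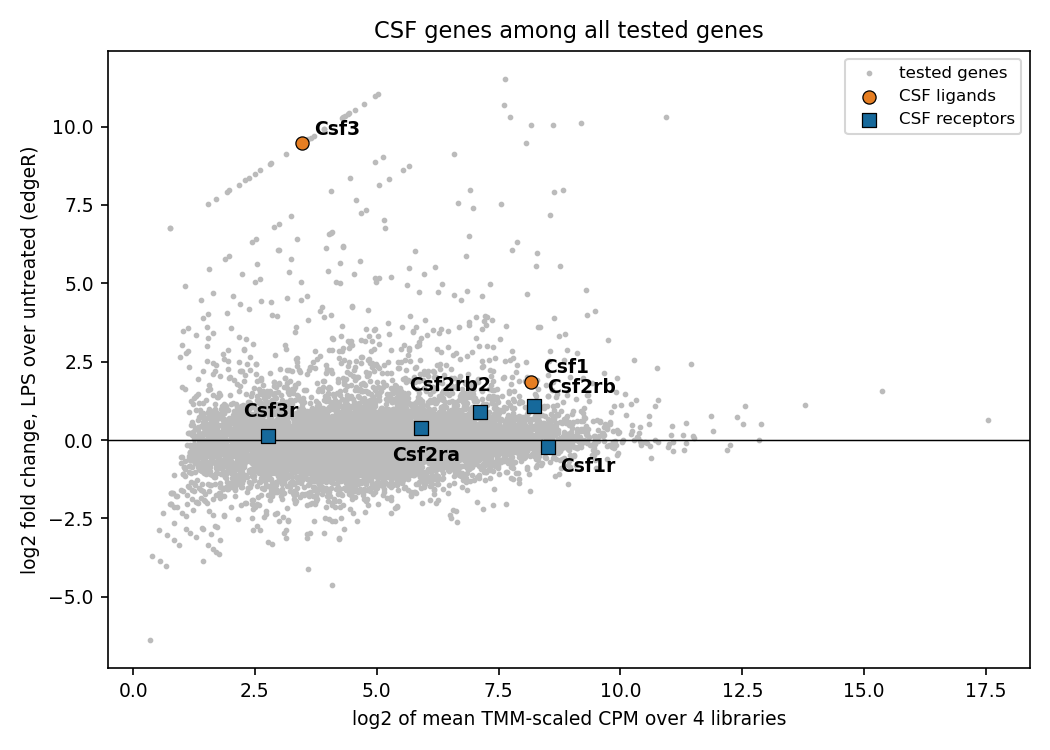
Log2 fold change of LPS over untreated (vertical axis, edgeR) against the log2 of the mean TMM-scaled CPM over the 4 libraries (horizontal axis) for 9992 tested genes (grey), with CSF ligands as circles and CSF receptors as squares. Csf1 lies at 1.86 and Csf2rb at 1.09, Csf1r lies among the bulk of genes at -0.21, and the fitted value of Csf3 rests on the prior count because it has no untreated reads.

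The balance of ligand and receptor transcripts differed between the groups. Csf1 reads per Csf1r read numbered 1.24 and 1.43 after LPS, against 0.33 and 0.304 in untreated cells, so that the ligand passed its receptor in read number in both LPS libraries and in neither untreated one. The exact 95% intervals (1.14 to 1.34 and 1.32 to 1.55 after LPS, 0.301 to 0.361 and 0.275 to 0.334 in untreated cells) do not overlap between the groups. The mean ratio was 4.21 times as high after LPS. With 2 libraries in each group an exact two-sided permutation test cannot go below p = 0.333, the value it gave here. The ratio needs no scaling of libraries, and with unstranded counts it was 4.22 times as high.

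**Figure D3:**
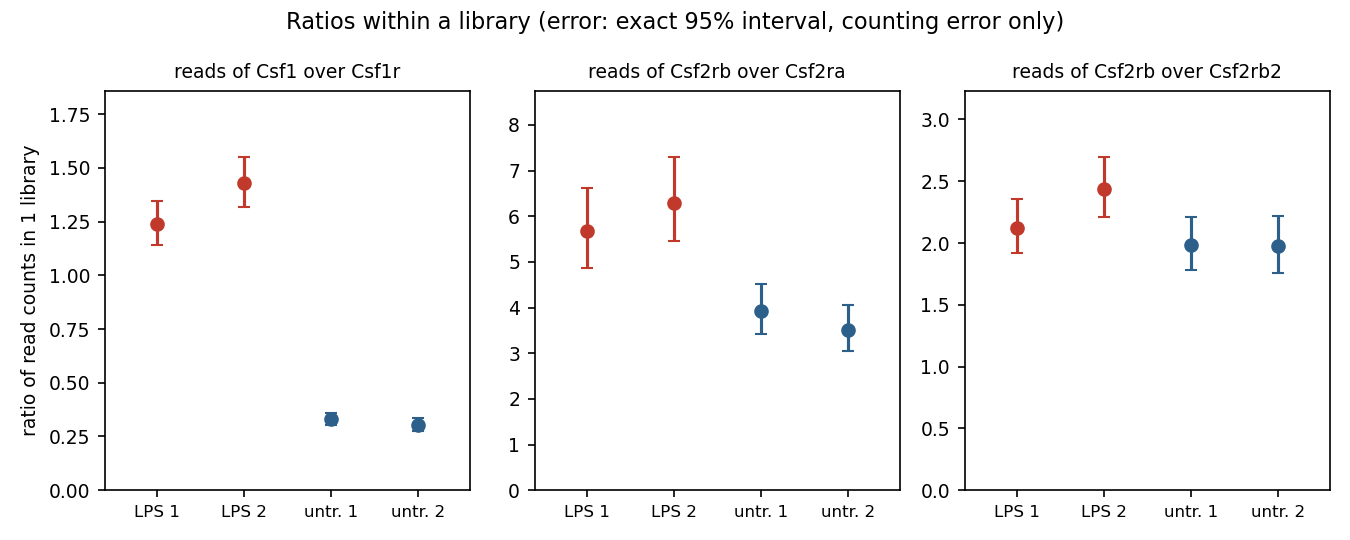
Ratios of read counts of 2 genes within each library (points, LPS in red and untreated in blue) with exact 95% intervals that cover counting error only, on linear axes from 0. Csf1 over Csf1r reaches 1.24 and 1.43 after LPS and 0.33 and 0.304 in untreated cells, Csf2rb over Csf2ra is higher in both LPS libraries, and Csf2rb over Csf2rb2 differs little.

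Levels can be set side by side between genes only per length, here as CPM per kilobase of the union of exons in the basic set of GENCODE vM21. For Csf2ra that union (1860 bases) is shorter than its longest transcript in the full set (2277 bases), so its place depends on the length used. After LPS the order was Csf1 (94.8 ± 1.15 CPM per kb), Csf2rb (78.2 ± 3.24), Csf1r (69.1 ± 7.86), Csf2rb2 (37.9 ± 2.14), Csf2ra (36.8 ± 1.22), Csf3 (15.6 ± 1.29) and Csf3r (2.03 ± 0.07) (SD, n = 2). In that order Csf2rb2 and Csf2ra overlapped between libraries, and Csf2rb and Csf1r were closer than the sum of their SDs. In untreated cells the order was Csf1r (79.7 ± 3.54 CPM per kb), Csf2rb (36.8 ± 0.17), Csf2ra (27.9 ± 2.40), Csf1 (26.1 ± 0.37), Csf2rb2 (20.5 ± 0.18) and Csf3r (1.85 ± 0.15), with Csf2 and Csf3 at 0. Csf2ra and Csf1 overlapped there, and with the length of the longest transcript they changed places (22.8 and 29.5 CPM per kb). Csf1r thus led in untreated cells, and Csf1 led after LPS under either length.

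**Figure D4:**
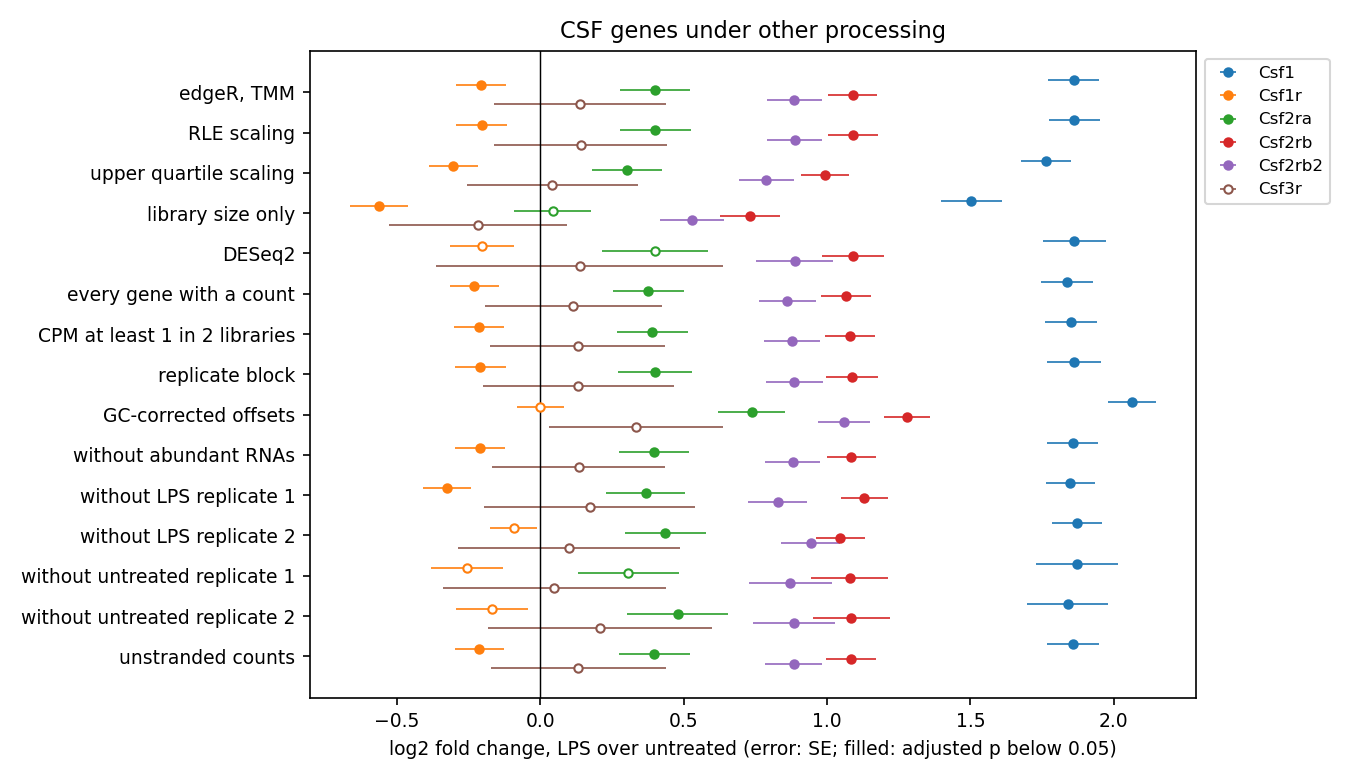
Log2 fold change of LPS over untreated (horizontal axis, error bar SE) for 6 CSF genes under each way of processing (vertical axis), filled where the adjusted p is below 0.05. Csf1, Csf2rb and Csf2rb2 keep their direction and call under every setting, Csf1r runs from -0.56 to -0.00082, and Csf3r is unfilled throughout; Csf3 is left out because its fitted value rests on the prior count.

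The genes whose pattern over the 4 libraries was nearest to each member, by Euclidean distance of centred log2 CPM, came from many functions. Nearest to Csf1 were Txnip (distance 0.05 log2 units, 413 ± 4.88 CPM after LPS and 113 ± 4.11 CPM in untreated cells), Anxa2 and Rnf149. Nearest to Csf3 were Oasl1, Tnf and Gbp3, an order that rests on the prior count of 2 added before taking logs, since Csf3 has no untreated reads. For Csf2rb they were Dnajb4, Anxa5 and Anxa7, for Csf2rb2 Slc31a1, Pcyt1a and Slc25a25, and for Csf2ra Sdhaf1, Gtf2h5 and March2. For Csf1r they were Prkar2a, Slc38a10 and Epas1, and for Csf3r Echs1, Rpa2 and Taf11.

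The other genes of the CSF pathway were described through 8 lists with 69 genes, of which 54 could be tested, with 28 higher and 15 lower by edgeR, where 26.6% of all tested genes were higher and 25.3% lower. Under library size scaling the counts were 21 higher and 21 lower, beside 1379 higher and 4778 lower of all 9992 tested genes. In the edgeR fit with TMM, the median log2 fold change of the 54 genes was 0.52, beside 0.00063 over all tested genes. Among related ligands, interleukin 34, the other ligand of CSF1R, had 0 reads in both LPS libraries and 2 and 0 in the untreated ones. Kitl, which encodes stem cell factor, was the 1 tested gene of 5 and rose to 66.3 ± 6.66 CPM after LPS, against 43.9 ± 0.43 CPM in untreated cells. The log2 difference was 0.59 ± 0.13 (SE), with an edgeR adjusted p of 9.2e-05. Under library size scaling its value was 0.23, without a call (edgeR adjusted p = 0.13). The receptor tyrosine kinases of the same class as CSF1R were nearly silent. Kit and Pdgfra had no read, Flt3 had 1 read after LPS, and Pdgfrb, the gene next to Csf1r, had 2 and 1 reads after LPS and none in untreated cells.

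Of 21 tested genes of signalling below the receptors, 7 rose and 6 fell, shares near those of all tested genes (26.6% and 25.3%), with a median log2 fold change of 0.24. Src family kinases relay signals from CSF1R, and Src had 57 and 54 reads after LPS and 3 and 1 reads in untreated cells. It passed the expression filter through its LPS libraries alone. Its log2 fold change was 5.35 ± 0.43 (SE), with an edgeR adjusted p of 3.6e-15. The value was 6.13 without untreated replicate 1 and 4.89 without untreated replicate 2. Lyn, a kinase of the same family, stood at 132 ± 2.74 CPM after LPS and 60.6 ± 2.45 CPM in untreated cells (log2 fold change 1.12). Inpp5d, which encodes the lipid phosphatase SHIP1, fell to 155 ± 0.55 CPM after LPS, against 289 ± 2.33 CPM in untreated cells (-0.89). The kinase gene Akt1 fell as well (-0.74). Under library size scaling, 3 genes of the list rose and 9 fell, beside 1379 higher and 4778 lower of all 9992 tested genes.

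All 7 tested JAK and STAT genes were called by edgeR, beside 51.9% of all tested genes, with a median log2 fold change of 0.89. Of the 7, 5 were higher and 2 lower, where 26.6% of all tested genes were higher and 25.3% lower. Jak2, the kinase bound to the beta chain, stood at 134 ± 5.01 CPM after LPS and 31.7 ± 4.15 CPM in untreated cells, a log2 difference of 2.08 ± 0.12 (SE) with an edgeR adjusted p of 3.3e-20. The STAT5 genes, which encode the main STAT factors of the GM-CSF receptor, were the 2 that fell. Stat5b stood at 24.3 ± 0.02 CPM after LPS and 48.8 ± 2.10 CPM in untreated cells (log2 fold change -1.01, SE 0.15), and Stat5a had 13 and 37 reads after LPS and 111 and 85 reads in untreated cells (-1.31). The LPS libraries of Stat5a lay far apart, and its log2 fold change was -2.15 without LPS replicate 2 and -0.84 without LPS replicate 1.

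All 7 tested feedback genes and STAT5 targets rose by edgeR, where 26.6% of all tested genes did, with a median log2 fold change of 1.99. With DESeq2 6 rose, beside 18.4% of all tested genes. Under library size scaling 6 rose, beside 1379 of 9992 tested genes. Socs3, an inhibitor of cytokine receptor signalling that acts on CSF3R, stood at 52.0 ± 0.97 CPM after LPS and 5.10 ± 0.64 CPM in untreated cells (log2 fold change 3.33). Mcl1, a survival gene, reached 966 ± 2.37 CPM after LPS, against 244 ± 4.30 CPM in untreated cells (1.99). Cish, a direct target of STAT5, was too low to be tested, with 13 and 5 reads after LPS and 1 and 2 in untreated cells.

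Of 8 tested genes that control CSF message stability, 3 were higher and 4 lower by edgeR, beside 26.6% and 25.3% of all tested genes. The median log2 fold change of the list was -0.42. With DESeq2, 2 were higher and 4 lower, beside 18.4% and 14.9% of all tested genes. Zc3h12a, which encodes the RNase Regnase-1, stood at 59.2 ± 0.04 CPM after LPS and 6.97 ± 2.04 CPM in untreated cells (log2 fold change 3.06), and Rc3h1, the Roquin-1 gene, also rose (1.06). The AU-rich element binding genes Elavl1 (-0.91) and Zfp36l1 (-1.27) fell, but genes of this kind did not all fall. Zfp36 was higher (0.52, edgeR adjusted p = 0.031) and Hnrnpd was not called (-0.23). Of 3 tested genes of receptor shedding, 2 rose by edgeR, beside 26.6% of all tested genes. Adam17, which encodes the protease that cleaves CSF1R from the surface, stood at 248 ± 23.8 CPM after LPS and 82.2 ± 0.45 CPM in untreated cells (log2 fold change 1.59, SE 0.10, edgeR adjusted p = 2.1e-19). Rhbdf2, whose product iRhom2 brings ADAM17 to the surface, rose too (1.30), while Adam10 stood at 139 ± 12.7 CPM after LPS and 141 ± 4.09 CPM in untreated cells (-0.03).

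The 7 genes of factors that act on Csf1r split, with 3 higher and 3 lower and a median log2 fold change of -0.38, where 51.9% of all tested genes were called in either direction. Spi1 rose (0.75), as did Ets2 (1.49) and Cebpb (1.55). Cebpa fell to 42.7 ± 3.10 CPM after LPS, against 95.3 ± 7.60 CPM in untreated cells (-1.15), and Fli1 also fell (-0.59).

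**Figure D5:**
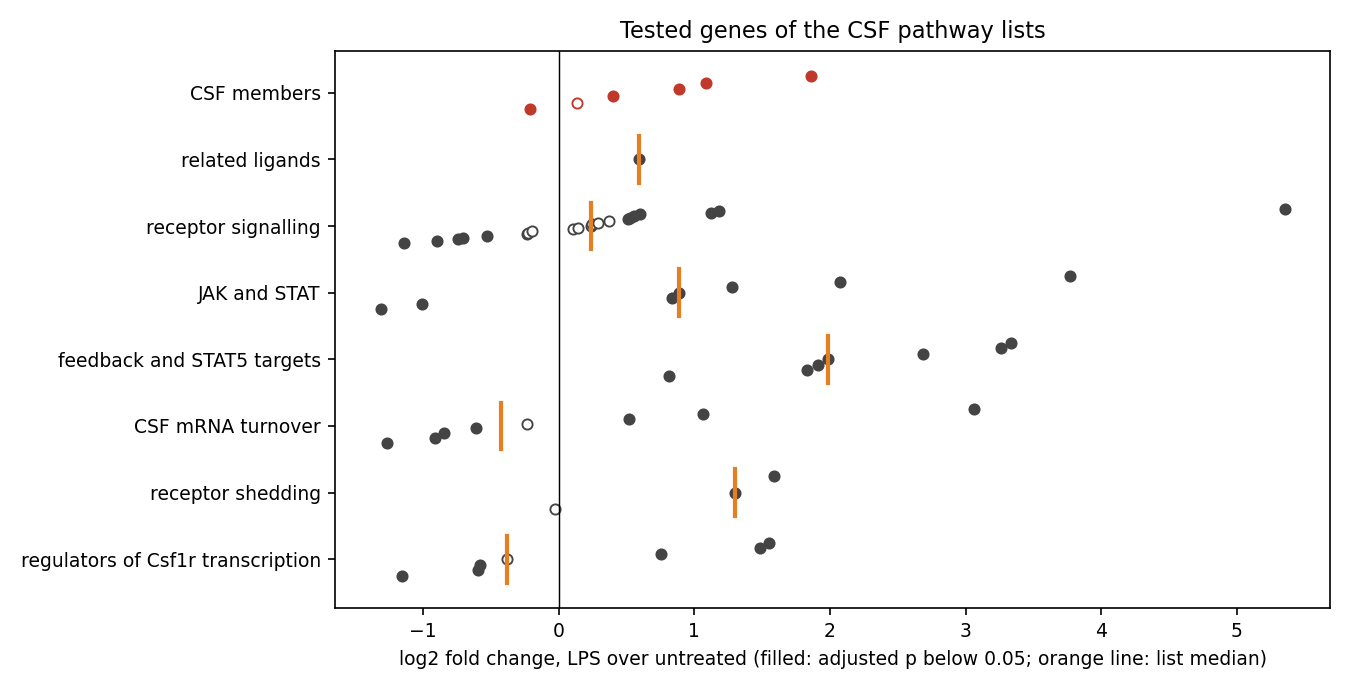
Log2 fold change of LPS over untreated (horizontal axis) for each tested gene of the CSF members (red, without Csf3) and of 7 pathway lists (dark grey), filled where the edgeR adjusted p is below 0.05, with the list median as an orange line. Feedback genes and STAT5 targets lie above 0 throughout (median 1.99), and the other lists with more than 3 genes hold genes on both sides; the eighth list, related receptors, had no tested gene.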

How the data were processed

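The deposited files hold raw counts of reads for each gene, as STAR writes them, with 4 summary lines and 3 columns (unstranded, forward and reverse strand). Per the labels' protocols, directional libraries were made after removal of ribosomal RNA. The ribosomal RNA precursor entry Rn45s still held 20.9% and 20.0% of gene counts after LPS and 14.6% and 19.0% in untreated cells. Per the submitters' processing notes, CASAVA 1.8.2, Trimmomatic 0.33, STAR 2.5.1 and DESeq2 were used, and the human build hg19 is named, which conflicts with the mouse symbols. The annotation is not stated in the labels or headers used here, and gene coordinates are therefore not printed beyond the RefSeq promoter windows.

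The reverse-strand column was used, since its total was 78.7 to 95.3 times the forward one. The summary lines, 72.9% and 72.3% of reads in the LPS libraries and 67.2% in each untreated one, stayed out of library sizes and tests. Counts cover uniquely placed reads. After edgeR's expression filter, 9992 of 12982 genes with a count were tested with edgeR 4.0.16 in R 4.3.3 (quasi-likelihood, robust, TMM, treatment as the only term, two-sided), with Benjamini-Hochberg adjustment over all tested genes at 0.05. The SE was approximated from the log2 fold change and F (their size over the root of F), and 95% intervals use it. The procedure was tested on simulated data. The simulated libraries shared a common profile with few changed genes, so scaling under widespread change was not tested. Replicate 1 minus replicate 2 differences correlated at -0.04 between the groups, so the numbers were not taken to pair libraries. Chi-square per degree of freedom was 2.44 in the LPS pair and 1.52 in the untreated pair, and both pairs were kept as 2 samples. Floors and exact intervals cover counting error only.

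Exon lengths (basic set) and GC content (longest transcript of the full set) come from GENCODE vM21, matched by symbol for 24045 of 24411 genes, 669 of them under an older symbol. All 8 members are named. From each pathway list the 2 called genes with the smallest p in each direction are named, or the 2 most abundant where none was called, and from marker lists the most abundant. For each tested member the 3 nearest genes by pattern are given. Some genes that this rule names are not reported here. Any other gene was picked with its values in view. The members and lists were chosen with earlier results of these data known.

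Alternatives were RLE, upper quartile and library size scaling, DESeq2 1.42.0, no filter beyond 1 count, CPM at least 1 in 2 libraries, unstranded counts, GC-corrected offsets, leaving out 5 abundant RNA entries, summed beta chain genes, a block for replicate number, and each library left out in turn.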

Additional observations from a re-analysis of the deposited data

How the results depend on the processing

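The calls of Csf1, Csf3, Csf2rb, Csf2rb2 and the summed beta chain genes held in every alternative run. Scaling by library size alone moved the median of all tested genes to -0.36 in log2, and the share of called genes that were higher to 22.4%, against 51.3% in the edgeR fit. Relative to that median Csf1r was at -0.21, Csf2ra at 0.40 and Csf3r at 0.14. Taking off the median largely undoes a change of scaling by arithmetic, so these values are no separate check. Under that scaling Csf3r turned to -0.22 and Csf2ra was at 0.043, without a call. DESeq2 gave -0.20 for Csf1r and 0.40 for Csf2ra, both without a call. GC-corrected offsets gave -0.00082 for Csf1r. The number of members called lower, 1 in the edgeR fit, was 0 with DESeq2 and with GC-corrected offsets, and 0 to 1 when 1 library was left out. Leaving out 1 library gave log2 fold changes of -0.33 to -0.093 for Csf1r, 0.31 to 0.48 for Csf2ra and 0.05 to 0.21 for Csf3r. The cause of these shifts was not tested. The replicate block changed no call of a member (Csf1r -0.21, edgeR adjusted p = 0.034), and 2658 genes were higher and 2513 lower with it, against 2659 and 2527 without it. Over all genes DESeq2 called 3324, against 5186 with edgeR. Depth limits Csf2 and Csf3r, with 0 reads and 20 to 32 reads in a library.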

Other observations

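Reads on the strand opposite to the members, which no comparison uses were few. Csf2rb had 0 and 7 of them in the LPS libraries and 1 and 2 in the untreated libraries, 0.227% of its stranded reads, against 1.14% over all genes. The endothelial marker Kdr, the 1 tested marker of another cell type, stood at 28.4 ± 2.43 CPM after LPS and 14.5 ± 0.54 CPM in untreated cells (SD, n = 2 each), with a log2 fold change of 0.96 (edgeR adjusted p = 1.4e-05). Pecam1, Tek and Cldn5, 3 other endothelial markers, had no read. Its part in any result was not tested.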
